A study of Trichoderma reesei QM6a with 6 samples.

Results

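A set of 35 genes stood in the same steep order in the 3 QM6a libraries, with replicate 3 above replicate 2 and replicate 2 above replicate 1. They were chosen from the deposited table of normalized counts, which divides each estimated read count by 1 size factor per library. The rule asked for a mean of at least 100 in QM6a, this order of the QM6a libraries, and a value in replicate 3 at least 2 times that in replicate 1. It was met by 35 of 9113 genes, and by 0.628% of the 5575 genes whose QM6a mean reached 100. The values in QM6a chose the genes and are given as a description. The libraries of the ace1 deletion (Δace1) played no part in the rule.

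Trichoderma reesei is a filamentous fungus that secretes cellulases and hemicellulases, and Ace1, a zinc finger transcription factor, is known to repress many of them. Poly(A) RNA was sequenced from 3 libraries of a strain lacking ace1 in the QM6a background and 3 of QM6a with its wild-type genotype. Both strains were grown in shake flasks at 28 °C and 250 rpm for 24 h on 1% D-glucose, then washed and moved to 1% D-mannitol (a sugar alcohol) for a further 3 h. The labels do not say whether libraries of a strain came from separate cultures, how the deletion was made or how many transformants it was taken from, so p-values measure the spread between these libraries, which may be technical.

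Of the 35 genes, 1 has a symbol in the reference table and 34 are known here by locus tag, so no role is given to those 34. The gene with a symbol is nag2, which encodes an N-acetylglucosaminidase. Such enzymes release N-acetylglucosamine from short chitin fragments, the products that chitinases leave behind. Chitin is a structural polymer of the fungal cell wall, and filamentous fungi are known to recycle their own wall chitin as well as that of other fungi.

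The libraries themselves did not follow the order of these genes. They held 6424125, 5831038 and 5482552 estimated counts in Δace1 replicates 1, 2 and 3, and 6938203, 6072118 and 6208909 in QM6a replicates 1, 2 and 3. The transcript of ace1 had normalized counts of 4.8, 6.1 and 13.3 in Δace1, against 9193, 9275 and 9343 in QM6a, which matches the labels. The 100 most abundant transcripts held a share of 28.1% to 29.5% of each Δace1 library and 33.3% to 36.3% of each QM6a library, with QM6a replicate 1 the highest. Few reads came from pks4 (TRIREDRAFT_82208), the polyketide synthase gene of the conidial pigment, with 7, 8 and 12 in the Δace1 libraries, against 4, 8 and 5 in the QM6a libraries. Any part of conidial RNA in the order of the 35 genes was not tested. A level here is an average over a mycelium, so fewer expressing cells and less RNA per cell cannot be told apart.

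Large differences among QM6a libraries were rare and ran mostly in 1 direction. Of 5575 genes with a QM6a mean of at least 100, 43 had a highest library at least 2 times the lowest. The order that defines the set held 35 of these, the opposite order (replicate 3 lowest, replicate 1 highest) held 3, and the other 4 orders held 5 between them. Without regard to size the defining order was not the most frequent. It was that of 954 genes, or 17.1%, while the opposite order was that of 1260 genes, or 22.6%. In Δace1 only 5 of 6001 genes with a mean of at least 100 differed at least 2-fold among libraries, and none of them belonged to the set.

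**Figure D1:**
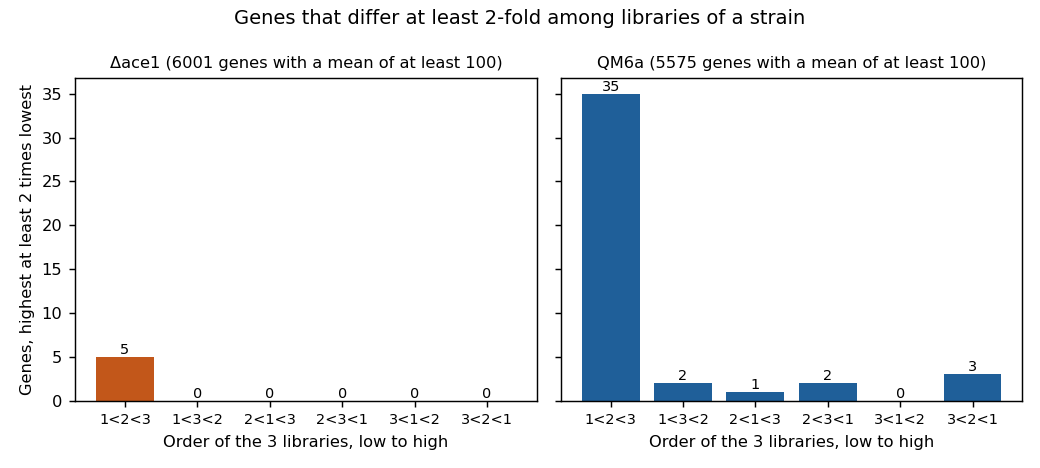
Bars give the number of genes whose highest library was at least 2 times the lowest, for each order of the 3 libraries from low to high, in Δace1 (left) and QM6a (right), among genes with a mean normalized count of at least 100. In QM6a 35 genes fall in the order 1, 2, 3 and 8 in all other orders, and in Δace1 the only 5 genes fall in the order 1, 2, 3.

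The steepness of the order varied widely within the set. The ratio of QM6a replicate 3 to replicate 1 ran from 2.12 to 37.5 with a median of 4.60. Replicate 2 lay at 12.7% to 65.2% of the log2 distance from replicate 1 to replicate 3, with a median of 49.2%. All 10 genes with the highest ratios had the larger log2 step between replicates 1 and 2, compared with 7 of the other 25. Together the 35 genes took 1.34%, 1.43% and 1.27% of the estimated counts in Δace1 replicates 1, 2 and 3, against 0.172%, 0.319% and 0.665% in QM6a replicates 1, 2 and 3. They were thus a small part of every library, and their summed share was level in Δace1. These sums lean on a few genes and do not describe each of the 35. In Δace1 replicate 1 TRIREDRAFT_121717, TRIREDRAFT_46002 and TRIREDRAFT_78626 held 22191, 14857 and 12411 estimated counts. In QM6a replicate 1 TRIREDRAFT_77481 held 6248.

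At the edges of the rule the genes did not form a separate class. Just inside the ratio were TRIREDRAFT_120877 at 2.12 and TRIREDRAFT_81102 at 2.26, and just outside it TRIREDRAFT_105533 at 1.93 and TRIREDRAFT_1925 at 1.83. Just inside the minimum mean were TRIREDRAFT_76218 with a QM6a mean of 104 and TRIREDRAFT_62153 with 110, and just outside it TRIREDRAFT_120931 with 95.1 and TRIREDRAFT_57940 with 88.1.

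The 35 genes were not steeply graded in Δace1, where few genes of any kind were. None of the 35 had Δace1 replicate 3 at least 2 times replicate 1 in the same order of replicates. Of genes with a Δace1 mean of at least 100, 0.0833% showed this pattern. At so small a share none is likely among any 35 genes, so nothing is read from its absence. The replicate numbers are names, and same-numbered libraries of the 2 strains were not taken as pairs. With no demand on size, 5 of the 35 (14.3%) stood in the order replicate 1, 2, 3 in Δace1, against 22.6% of genes with such a mean, and 8 (22.9%) stood in the opposite order, against 22.9%. The ratio of Δace1 replicate 3 to replicate 1 ran from 0.617 to 1.54 with a median of 0.993. The 95% counting interval of that ratio, an exact interval that covers counting error only and compares those 2 libraries, lay above 1 for 8 genes and below 1 for 9, and it held 1 for 18. Over genes with a Δace1 mean of at least 100 the interval lay above 1 for 16.1% and below 1 for 16.4%.

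The median spread of the set among the Δace1 libraries was slightly above that of genes in general. The highest Δace1 library was 1.02 to 2.21 times the lowest across the set, with a median of 1.21, against a median of 1.13 over genes with a Δace1 mean of at least 100. Of the 35 genes 23 lay above that median, and 5 of the 35 had a Δace1 mean below 100, where counting error is larger. In QM6a the median of the set was 4.60, against 1.12 over genes with a QM6a mean of at least 100. The rule asked for a wide spread there, so the larger spread in QM6a is no result.

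**Figure D2:**
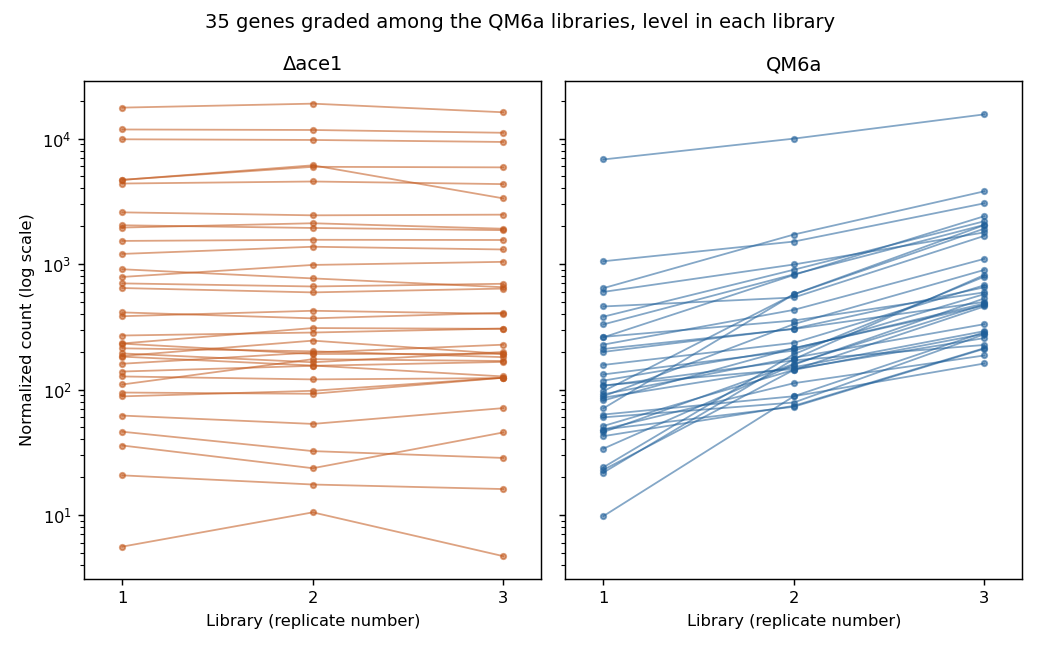
Each line joins the normalized counts (log scale) of 1 of the 35 genes in replicates 1, 2 and 3 of Δace1 (left) and QM6a (right). The replicate numbers are names and not a series. The Δace1 ratios of replicate 3 to replicate 1 stay between 0.617 and 1.54, whereas QM6a replicate 3 is 2.12 to 37.5 times replicate 1 because the rule chose it so.

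The genes were spread over a wide range of levels in Δace1. Mean normalized counts ran from 6.93 to 17595 in Δace1, with a median of 287, and from 104 to 10791 in QM6a, with a median of 336. In 11 genes (31.4%) all 3 Δace1 libraries lay above all 3 QM6a libraries, and in 8 (22.9%) all 3 lay below, against 29.7% and 53.0% of genes with a QM6a mean of at least 100. In 13 genes (37.1%) all 3 Δace1 libraries lay between the lowest and the highest QM6a library, against 3.25% of those genes. The rule widens the QM6a range, so nothing is read from these shares. The mean of Δace1 was above QM6a replicate 1 in 26 genes, above replicate 2 in 19 and above replicate 3 in 12.

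**Figure D3:**
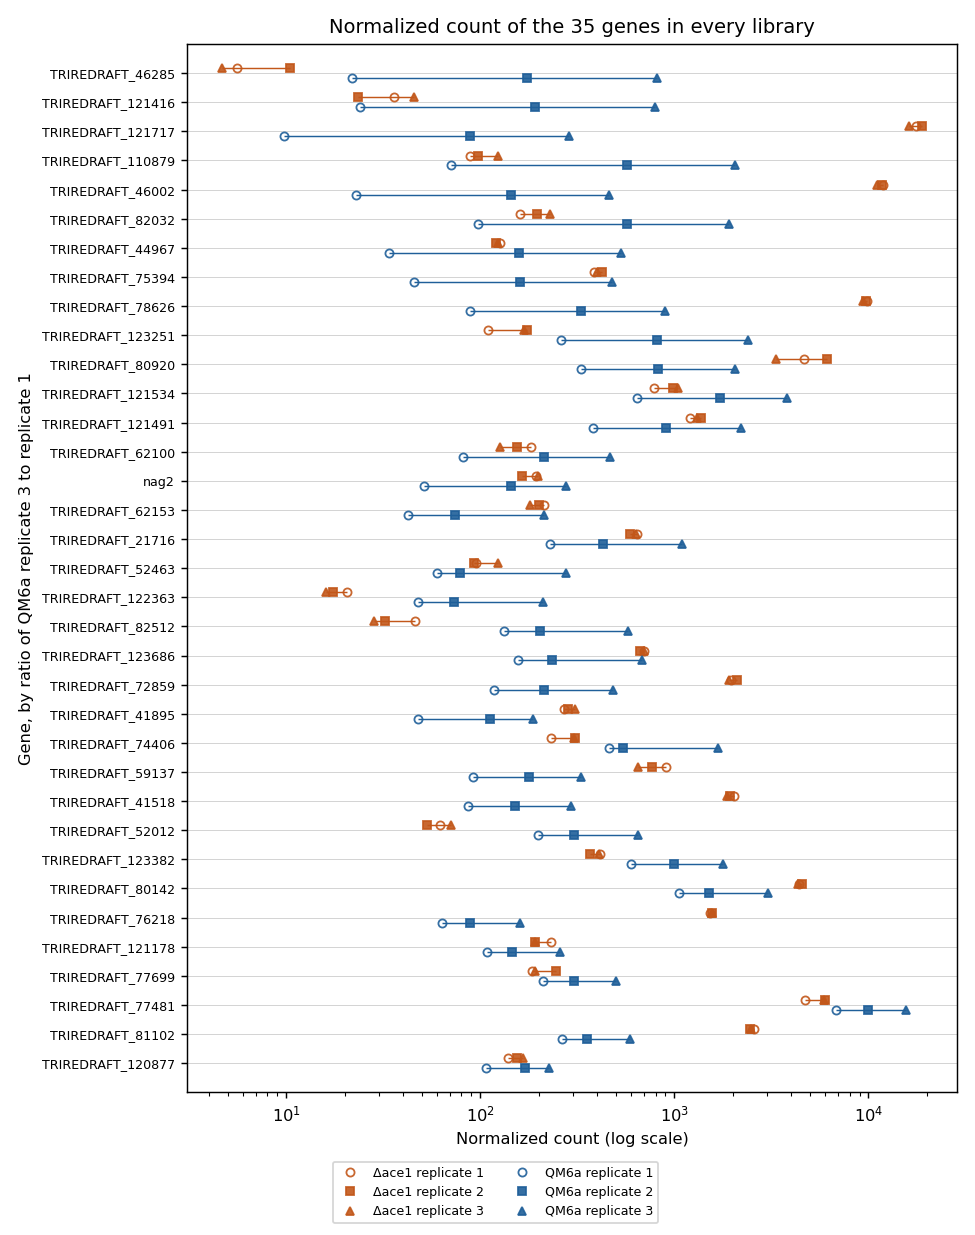
Each row is 1 of the 35 genes, sorted by the ratio of QM6a replicate 3 to replicate 1, and each symbol is the normalized count (log scale) in 1 library, with Δace1 above QM6a in each row and a line over the range of the 3 libraries. Within a row the highest Δace1 symbol is at most 2.21 times the lowest. The Δace1 levels run from 4.7 to 18962, some far above, some far below and some inside the QM6a range.

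The 35 genes were then compared between the strains, which asks how their level differed where ace1 was deleted. In edgeR's quasi-likelihood test 9 rose (25.7%) and 5 fell (14.3%) in Δace1, at a Benjamini-Hochberg adjusted p below 0.05 over all 7769 genes tested. Among all genes tested 41.2% rose and 39.5% fell, and among the 5575 with a QM6a mean of at least 100 29.6% rose and 51.4% fell. All 35 genes entered the test. The rule selects a wide spread in QM6a, and the median standard error of the log2 change was 0.65 in the set against 0.09 in genes with such a mean, so nothing is read from the lower share of calls. The median log2 change was 0.11 in the set and -0.24 in genes with such a mean, and the median size of the change regardless of sign was 1.64 against 0.66. The wide spread that the rule selects can also enlarge the size of a change, so nothing is read from these medians. The number that fell was 10 with DESeq2, 13 without QM6a replicate 1, 6 without QM6a replicate 3, 2 without QM6a replicate 2, 0 in edgeR without Δace1 replicate 1 or without Δace1 replicate 2 (1 at an unadjusted p below 0.05 in each case), and 1 without Δace1 replicate 3. The number that rose was 17 without QM6a replicate 3.

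Of the 9 genes that rose, 3 were far higher in Δace1 than in any QM6a library although their order in QM6a was among the steepest. TRIREDRAFT_121717 had normalized counts of 17634, 18962 and 16189 in Δace1, against 9.8, 88.4 and 286.1 in QM6a. Its QM6a values rested on 9, 74 and 245 reads. TRIREDRAFT_46002 had 11807, 11698 and 11114 in Δace1, against 22.9, 143.3 and 459.0 in QM6a. TRIREDRAFT_78626 had 9862, 9741 and 9390 in Δace1, against 88.3, 332.1 and 898.0 in QM6a. The strains did not overlap in any of the 3 genes, and the Δace1 libraries differed by at most 1.17 times. The log2 change was 7.13 with a standard error of 1.07 for TRIREDRAFT_121717 (edgeR, adjusted p = 0.00317), 5.82 ± 1.02 for TRIREDRAFT_46002 (edgeR, adjusted p = 0.00574) and 4.48 ± 0.90 for TRIREDRAFT_78626 (edgeR, adjusted p = 0.00908).

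How large these 3 increases are depends on which QM6a library they are set against. The Δace1 mean of TRIREDRAFT_121717 was 1793 times QM6a replicate 1 and 61.5 times QM6a replicate 3. For TRIREDRAFT_46002 it was 504 times replicate 1 and 25.1 times replicate 3, and for TRIREDRAFT_78626 109 and 10.8 times. Without QM6a replicate 3 the log2 changes were 8.53, 7.16 and 5.55 in the order given, and without QM6a replicate 1 they were 6.57, 5.28 and 3.99. Per length these are abundant transcripts of Δace1, with 7003 ± 730, 6372 ± 396 and 2106 ± 116 TPM there (SD, n = 3), a unit that divides each count by the transcript's length and the library's sum.

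The other 6 genes that rose had a flatter order in QM6a. TRIREDRAFT_76218 had normalized counts of 1528, 1560 and 1554 in Δace1, against 63.2, 88.4 and 161.2 in QM6a, a log2 change of 3.92 ± 0.30 (edgeR, adjusted p = 0.000167). TRIREDRAFT_41518 had 2036, 1938 and 1862 in Δace1, against 86.1, 150.5 and 291.9 in QM6a, a log2 change of 3.49 ± 0.44. The genes TRIREDRAFT_72859 and TRIREDRAFT_81102 rose by 2.90 and 2.65 on the log2 scale. These 4 and the 3 steep genes were called higher under all 17 other settings tried. TRIREDRAFT_59137 (1.98 ± 0.48) lost its call without Δace1 replicate 1 (1.85), Δace1 replicate 2 (1.99) or QM6a replicate 2 (1.91). TRIREDRAFT_41895 (1.34 ± 0.45) lost it without QM6a replicate 2 (1.32) or any 1 of Δace1 replicates 1, 2 and 3 (1.38, 1.34 and 1.29), and also with no count filter (1.33) and with limma on normalized counts.

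The 5 genes that fell lay below every QM6a library in all 3 Δace1 libraries. TRIREDRAFT_82512 had normalized counts of 46.1, 32.3 and 28.5 in Δace1, against 131.9, 204.2 and 575.7 in QM6a, a log2 change of -3.05 ± 0.80 (edgeR, adjusted p = 0.0227). TRIREDRAFT_123251 had 109.7, 174.5 and 168.8 in Δace1, against 260.6, 818.2 and 2406 in QM6a, a log2 change of -2.93 ± 1.00 (edgeR, adjusted p = 0.0497). The gap between the strains was thus narrow beside QM6a replicate 1 and wide beside replicate 3. TRIREDRAFT_52012 had 62.0, 53.2 and 71.1 in Δace1, against 199.5, 305.8 and 652.8 in QM6a, a log2 change of -2.61 ± 0.60. TRIREDRAFT_122363 had 20.7, 17.5 and 16.1 in Δace1, against 48.0, 72.9 and 211.4 in QM6a, a log2 change of -2.57 ± 0.81. TRIREDRAFT_123382 had 411.6, 369.1 and 408.7 in Δace1, against 599.6, 991.4 and 1787 in QM6a, a log2 change of -1.48 ± 0.47.

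Each of these 5 calls was lost when 1 library was left out. Without Δace1 replicate 1 or Δace1 replicate 2 none of the 5 was called, with log2 changes of -3.29 and -2.98 for TRIREDRAFT_82512, -2.74 and -3.05 for TRIREDRAFT_123251, -2.61 and -2.52 for TRIREDRAFT_52012, -2.68 and -2.54 for TRIREDRAFT_122363, and -1.51 and -1.44 for TRIREDRAFT_123382. Without Δace1 replicate 3 only TRIREDRAFT_52012 stayed called. Without QM6a replicate 2 TRIREDRAFT_123251 (-3.13), TRIREDRAFT_122363 (-2.79) and TRIREDRAFT_123382 (-1.57) were not called, and TRIREDRAFT_123251 was not called without QM6a replicate 3 either (-1.82). With scaling to library totals in place of TMM, the trimmed mean of M values used in the main test, TRIREDRAFT_123251 (-2.44), TRIREDRAFT_122363 (-2.08) and TRIREDRAFT_123382 (-0.99) were not called.

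**Figure D4:**
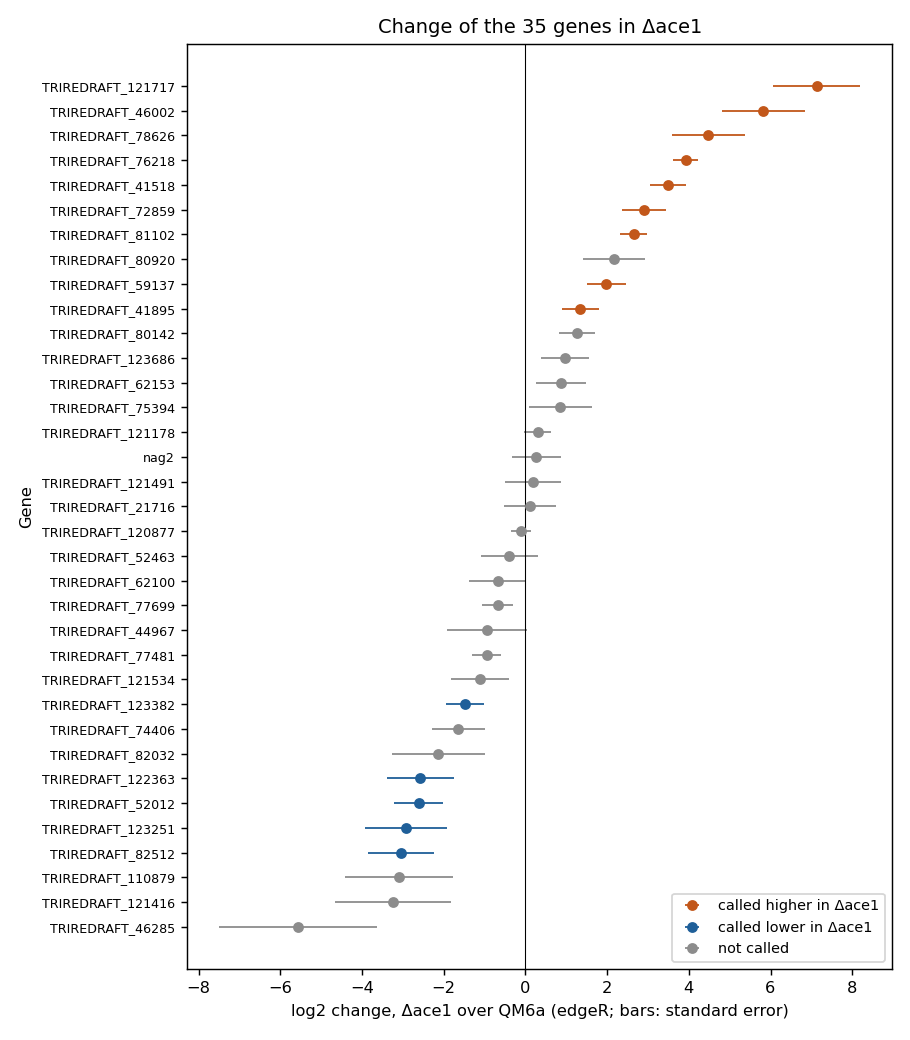
Points give the log2 change of Δace1 over QM6a for each of the 35 genes in edgeR's quasi-likelihood test, and bars its standard error. The 9 genes called higher range from 1.34 to 7.13 and the 5 called lower from -3.05 to -1.48, while the lowest point of all, TRIREDRAFT_46285 at -5.56, has a standard error of 1.93 and is not called.

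Some of the steepest genes in QM6a were low in Δace1, near or below the level of QM6a replicate 1. TRIREDRAFT_46285 had the highest ratio, with normalized counts of 5.6, 10.5 and 4.7 in Δace1, against 21.8, 174.4 and 818.6 in QM6a. Its log2 change of -5.56 did not pass the test (edgeR, adjusted p = 0.0525), but it did with DESeq2 (-5.61, adjusted p = 2.36e-05) and in edgeR without QM6a replicate 1 (-6.12, adjusted p = 0.0206). The Δace1 libraries held 7, 12 and 5 reads of it, so its evenness there cannot be judged closely, and the 95% counting interval of its ratio of replicate 3 to replicate 1 ran from 0.213 to 3.12. TRIREDRAFT_121416 had 35.8, 23.6 and 45.5 in Δace1, against 24.0, 191.1 and 793.0 in QM6a, and TRIREDRAFT_110879 had 88.2, 97.7 and 124.2 in Δace1, against 70.8, 573.4 and 2043 in QM6a. In both genes the Δace1 libraries lay close to QM6a replicate 1 and far below replicate 3.

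TRIREDRAFT_121416 and TRIREDRAFT_110879 had log2 changes of -3.24 ± 1.43 and -3.10 ± 1.32 that did not pass the test (edgeR, adjusted p = 0.0982 and 0.0908). Both were called lower with DESeq2 (-3.27 and -3.11) and in edgeR without QM6a replicate 1 (-3.80 and -3.65). The 3 genes TRIREDRAFT_46285, TRIREDRAFT_121416 and TRIREDRAFT_110879 and the strongly raised TRIREDRAFT_121717 had much the same profile in QM6a, with replicate 2 at 7.97 to 9.01 times replicate 1 and replicate 3 at 28.8 to 37.5 times. In Δace1 their means, in the order named, were 6.93, 34.9, 103 and 17595. Genes with like profiles in QM6a thus lay at opposite ends of the scale in Δace1.

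A further 2 of the 10 steepest genes lay inside the QM6a range in Δace1. TRIREDRAFT_44967 had normalized counts of 127.1, 120.4 and 123.3 in Δace1, against 33.8, 157.7 and 532.5 in QM6a. TRIREDRAFT_75394 had 383.8, 424.1 and 401.1 in Δace1, against 45.8, 160.1 and 476.5 in QM6a. Their log2 changes of -0.94 ± 0.98 and 0.85 ± 0.77 did not pass the test (edgeR, adjusted p = 0.425 and 0.358). The sign for TRIREDRAFT_44967 turned without QM6a replicate 3 (0.42), and TRIREDRAFT_75394 was called higher without it (2.01).

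**Figure D5:**
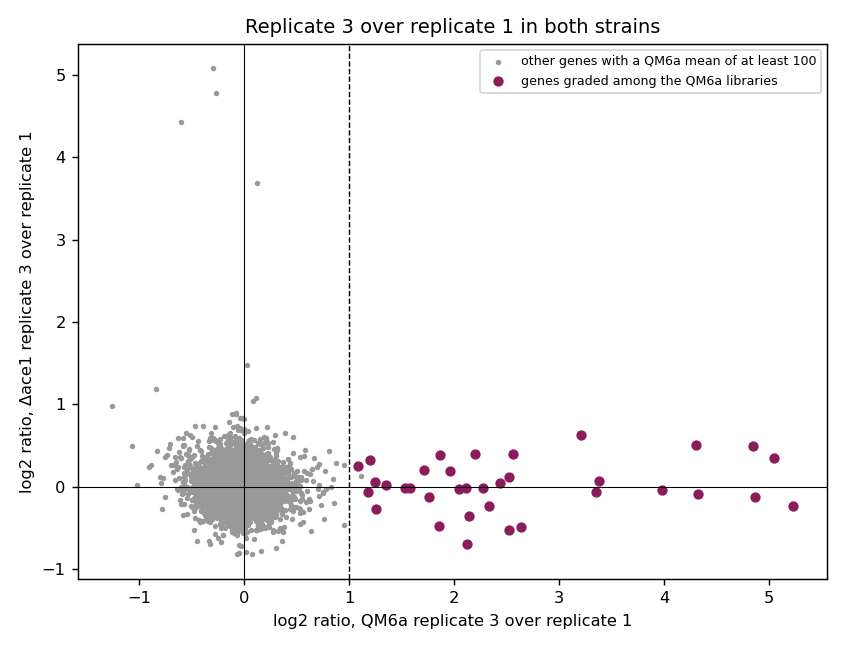
Each point is a gene with a QM6a mean of at least 100 and counts in every library, with the log2 ratio of replicate 3 to replicate 1 in QM6a across and in Δace1 upward. The 35 genes lie right of the dashed line at 1 because of the rule, and in the vertical direction they stay between -0.70 and 0.62. Among the few grey points high in Δace1 are the 5 genes with a Δace1 mean of at least 100 and at least a 2-fold ratio there. In QM6a these 5 lie between -0.84 and 0.12.

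The only gene with a symbol, nag2 (TRIREDRAFT_23346), was level in Δace1. It had normalized counts of 193.9, 164.9 and 199.2 in Δace1, against 51.2, 143.3 and 277.9 in QM6a, so the Δace1 libraries lay inside the QM6a range. The log2 change was 0.27 ± 0.61 and did not pass the test (edgeR, adjusted p = 0.707), and it ranged from -0.16 without QM6a replicate 1 to 0.97 without QM6a replicate 3. Its paralogue nag1, also an N-acetylglucosaminidase gene, did not show the order. It had 350.4, 296.7 and 233.3 in Δace1, against 145.0, 140.9 and 126.1 in QM6a, and rose by 1.12 on the log2 scale (edgeR, adjusted p = 1.56e-06).

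In the reference table's gene order nag2 lies next to another of the 35, TRIREDRAFT_82032. That gene had normalized counts of 160.5, 197.2 and 227.6 in Δace1, against 97.0, 573.3 and 1915 in QM6a. Its ratio of QM6a replicate 3 to replicate 1 was 19.7, against 5.42 for nag2, and its log2 change of -2.13 did not pass the test (edgeR, adjusted p = 0.153), although it was called lower without QM6a replicate 1 (-2.66). The spans of the 2 genes do not overlap in that table. They were the only pair of neighbours in the set, and none of the 35 genes overlaps a neighbour there. Of the other neighbours 38 had a QM6a mean of at least 100, and their ratio of QM6a replicate 3 to replicate 1 had a median of 0.98 and reached 1.26 at most. A neighbour with such a mean that met the rule would itself be a member. Neighbours below that mean, some of which stood in the order, are not counted here.

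Among 19 chitinase and N-acetylglucosaminidase genes with a symbol, 5 had a QM6a mean of at least 100 and nag2 was the only member of the set. In Δace1 11 of the 13 tested rose (41.2% of all genes tested did), 11 to 12 under each other scaling, and nag2 was 1 of the 2 not called. The share of 41.2% is not matched for level. It was 29.6% among genes with a QM6a mean of at least 100, which most of the 13 did not reach, so nothing is read from the difference. The chitinase gene chi18-2 (TRIREDRAFT_59082) showed a steep order below the minimum mean, with normalized counts of 180.4, 185.0 and 199.2 in Δace1, against 9.8, 32.2 and 66.6 in QM6a. Its QM6a replicate 3 was 6.78 times replicate 1, and it rose by 2.41 on the log2 scale (edgeR, adjusted p = 0.00618). The other 11 tested genes besides nag2 and chi18-2 include chi18-7, with 655.6, 664.1 and 672.4 in Δace1, against 129.7, 156.5 and 182.2 in QM6a, in the same order but with a ratio of 1.40 in QM6a.

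No other list held a member of the set. Of 40 ribosomal protein genes, which code for the ribosome's subunits, 5 stood in the order in QM6a (17.1% of genes with a QM6a mean of at least 100 did). Over the 40 genes the median ratio of highest to lowest QM6a library was 1.10. All 40 had a QM6a mean of at least 100 and all 40 fell in Δace1, also under each other scaling. Among genes with such a mean 51.4% fell, and among all genes tested 39.5%. In the lists that follow, the ratio of highest to lowest QM6a library covers only genes with a QM6a mean of at least 100. Its median was 1.16 for the light response genes (3 of env1, blr1, blr2 and phr1). It was 1.18 for the glyoxylate bypass and acetate genes (2 of acu3, acu9 and acs1) and 1.18 for the hydrophobins (2 of 3). For the cellulase and beta-glucosidase genes (2 of 12) it was 1.24, and for the folding genes (pdi1 and bip1) 1.07.

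The 6 genes with the highest QM6a means include TRIREDRAFT_123251 and TRIREDRAFT_123382, both given above among the genes that fell. TRIREDRAFT_77481, the highest in QM6a, had normalized counts of 4689, 5951 and 5892 in Δace1, against 6812, 9982 and 15579 in QM6a. The strains did not overlap, but the log2 change of -0.95 ± 0.36 did not pass the test (edgeR, adjusted p = 0.0647). It was called lower with DESeq2 (-0.97) and in edgeR without QM6a replicate 1 (-1.19) or QM6a replicate 3 (-0.59). TRIREDRAFT_80142 had 4380, 4546 and 4333 in Δace1, against 1052, 1510 and 3047 in QM6a, a log2 change of 1.26 ± 0.45 (edgeR, adjusted p = 0.0571). This gene was called higher with DESeq2 (1.24), with library totals (1.75) and without QM6a replicate 3 (1.81).

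TRIREDRAFT_121534 and TRIREDRAFT_121491 lay inside the QM6a range in Δace1, below QM6a replicate 2 in TRIREDRAFT_121534 and above it in TRIREDRAFT_121491. TRIREDRAFT_121534 had normalized counts of 789.1, 983.5 and 1041 in Δace1, against 642.2, 1718 and 3798 in QM6a. TRIREDRAFT_121491 had 1204, 1373 and 1306 in Δace1, against 380.5, 900.6 and 2192 in QM6a. The log2 change was -1.11 ± 0.71 for TRIREDRAFT_121534 and 0.18 ± 0.68 for TRIREDRAFT_121491, and neither was called. Without QM6a replicate 1 the value was -1.54 for TRIREDRAFT_121534, then called lower, and -0.24 for TRIREDRAFT_121491. TRIREDRAFT_80920 was the least even well-covered gene in Δace1, with 4678, 6117 and 3335 there, against 330.3, 827.7 and 2052 in QM6a. Its replicate 3 was the lowest in Δace1 and the highest in QM6a, and its log2 change of 2.16 ± 0.76 did not pass the test in edgeR (adjusted p = 0.0556) but did with DESeq2 (2.14, adjusted p = 0.00579) and without QM6a replicate 3 (3.05).

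TRIREDRAFT_74406 lay below all QM6a libraries in Δace1, with normalized counts of 232.8, 308.9 and 304.4 there, against 459.0, 541.1 and 1676 in QM6a. Its log2 change of -1.64 ± 0.65 did not pass the test (edgeR, adjusted p = 0.0746), and it was called lower with DESeq2 (-1.66) and without QM6a replicate 3 (-0.81). The other 8 genes, TRIREDRAFT_62100, TRIREDRAFT_62153, TRIREDRAFT_21716, TRIREDRAFT_52463, TRIREDRAFT_123686, TRIREDRAFT_121178, TRIREDRAFT_77699 and TRIREDRAFT_120877, had mean normalized counts between 104 and 686 in Δace1. Their log2 changes ran from -0.68 to 0.97 and none was called in the main test. All but TRIREDRAFT_62100 were called under some other setting. Without QM6a replicate 3, TRIREDRAFT_123686 (1.83), TRIREDRAFT_62153 (1.80), TRIREDRAFT_21716 (0.95) and TRIREDRAFT_121178 (0.72) were called higher. TRIREDRAFT_52463 turned from -0.39 to 0.60 without that library and was called higher. Without QM6a replicate 1, TRIREDRAFT_77699 (-0.93) and TRIREDRAFT_120877 (-0.36) were called lower.

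The coding length of the 35 genes was 267 to 2772 bases with a median of 918, against a median of 1362 over the 5575 genes with a QM6a mean of at least 100. Estimated counts of all 35 were whole numbers in every library, whereas estimates for transcripts that share reads with similar ones need not be whole. Whole values are the rule over all genes. Reads recovered from the normalized counts were whole (within 0.05) for 91.8% to 96.1% of values, so nothing particular to the set is read from this. Of the 10 genes with the steepest order, TRIREDRAFT_110879 was the shortest, with 267 bases, and TRIREDRAFT_123251 the longest, with 1272 bases.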

How the data were processed

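The submitters' processing notes name FastQC 0.11.5, kallisto 0.43.1 and DESeq2 1.14.1. Which transcript set, build and strand setting served for counting is not given in the sources used here. Libraries were stranded TruSeq libraries of poly(A) RNA, per the labels' protocols. Per the file headers, each sample table holds an estimated count, a TPM value (per effective length) and lengths, 99.1% of them multiples of 3. The deposited series table holds a normalized signal per gene, a count divided by 1 size factor per library, and multiplying back gave whole reads (within 0.05) for 91.8% to 96.1% of values. Transcripts and genes carry different names, so they were joined by their counts in all 6 libraries. All 9113 genes found a partner, 99.29% of values were equal after rounding, and each of the 35 genes had a single partner. The RefSeq gene table for assembly v2.0 listed 9109 of the genes, 234 with a symbol, and gave symbols, gene order and whether neighbouring spans overlap, and none of its coordinates is printed. No sequence is printed.

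After rounding, the estimated counts went into edgeR 4.0.16 in R 4.3.3, with TMM scaling, filterByExpr and the robust quasi-likelihood test, two-sided, with calls at a Benjamini-Hochberg adjusted p below 0.05. Values after ± on a log2 change are standard errors, obtained from the change and the square root of its F statistic. Alternatives were DESeq2 1.42.0, other scalings and count filters, limma 3.58.1 on normalized counts and TPM (log2 after adding 1, for TPM also 0.1), a replicate block, each library left out, other thresholds and scalings behind the rule and, chosen after seeing the data, recovered reads. The tests were tried on simulated data.

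The members and gene lists were chosen with earlier results of these data known. Genes named in full are those with a symbol, the 10 highest ratios, the 6 highest QM6a means, the 4 largest called changes each way, the genes at the ratio threshold and ace1. The other members, nag1, chi18-2, chi18-7 and the genes at the minimum mean were named after their values were seen. Promoter motifs were not searched.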

Additional observations from a re-analysis of the deposited data

How the results depend on the processing

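The set held 35 genes with TMM-scaled counts, the same 35, and 36 with library totals, 41 with TPM (34 shared), 43 with a minimum mean of 50, 25 with 200, 59 with a ratio of at least 1.5 and 27 with at least 3. None was graded in Δace1 with the ratio asked, and 5 were in order alone with no ratio. The number called higher, 9, was 7 to 17 with single libraries left out and 15 on log2(TPM + 1) and on log2(TPM + 0.1). The number called lower, 5, was 0 to 13 with single libraries left out, 10 with DESeq2, 3 with upper-quartile scaling, 2 with library totals, 3 with at least 50 counts in 3 libraries, 2 on log2(TPM + 1) and 3 on log2(TPM + 0.1). These scalings moved the median of all genes by 0.16 (upper quartile), 0.50 (library totals), 0.75 and 0.77 (TPM) on the log2 scale relative to TMM. TRIREDRAFT_120877 (-0.11) turned to 0.69 and 0.72 on the 2 TPM scales, and TRIREDRAFT_52463 ranged from -0.76 to 0.60 with single libraries left out. The cause of these and the other changes was not tested. Recovered reads gave 9 and 5. Same-numbered libraries correlated at -0.025, 0.067 and -0.055 in their deviations from the strain mean (6013 genes) and were not taken as pairs, and the replicate block gave 8 higher (8 shared) and 5 lower (3 shared), without TRIREDRAFT_59137, TRIREDRAFT_123251 and TRIREDRAFT_123382 and with TRIREDRAFT_46285 (-5.29) and TRIREDRAFT_77481 (-0.88). No Δace1 library correlated best with the QM6a library of its own number. Of the 21 genes not called, 17 were called under some setting, so a missing call does not show that a gene was level between strains. Depth limits genes such as TRIREDRAFT_46285, with 5 to 12 reads per Δace1 library.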

Other observations

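The 5 genes that stood in the order replicate 1, 2, 3 in Δace1 with at least a 2-fold ratio were not graded in QM6a, and all were named after their values were seen. TRIREDRAFT_61593 had normalized counts of 2660, 6365 and 90119 in Δace1, against 5604, 4551 and 4565 in QM6a. TRIREDRAFT_104156 had 2761, 4460 and 59691 in Δace1, against 8139, 5199 and 5345 in QM6a. Both were dominated by Δace1 replicate 3, as were TRIREDRAFT_48266, at 27.6 times replicate 1, and TRIREDRAFT_61995, at 12.9 times. TRIREDRAFT_105143 differed, with 266.2, 597.0 and 604.8 in Δace1, against 882.8, 451.6 and 492.9 in QM6a. Of the 5 coding lengths 4 were 426, 180, 165 and 225 bases, and that of TRIREDRAFT_104156 was 1152. None of the 5 passed the test between strains (edgeR, adjusted p = 0.154 to 0.958).

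The 3 genes in the opposite order in QM6a were TRIREDRAFT_108975, TRIREDRAFT_111426 and TRIREDRAFT_46242. TRIREDRAFT_108975 had normalized counts of 59.6, 109.1 and 117.6 in Δace1, against 424.0, 178.0 and 177.5 in QM6a. TRIREDRAFT_111426 had 220.9, 268.8 and 312.0 in Δace1, against 329.2, 194.7 and 156.5 in QM6a. In both, replicate 1 was the highest library in QM6a and the lowest in Δace1, which was not tested. QM6a replicates 2 and 3 of TRIREDRAFT_108975 were nearly level, with 149 and 152 reads, so their order there cannot be judged. TRIREDRAFT_46242 had 509.4, 445.1 and 515.9 in Δace1, against 879.7, 436.0 and 433.3 in QM6a. Its QM6a replicates 2 and 3 were nearly level too, and its lowest Δace1 library was replicate 2.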
